A study of Mus musculus with 3 samples.

Results

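The genes described here are the ATP-binding cassette (ABC) transporters measured in leptin-receptor reporter cells of a mouse sympathetic ganglion. They were chosen by symbol alone: Abc, a subfamily letter from a to g, a number and at most 1 further letter. This gave 50 of the 52550 genes in the deposited table, with 16 in subfamily A, 10 in B, 10 in C, 4 in D, 1 in E, 3 in F and 6 in G. The cells came from the superior cervical ganglia of male mice, 10 weeks old, of the genotype LepRCRE::Ai32, in which Cre recombinase made from the leptin receptor gene switches on a channelrhodopsin fused to yellow fluorescent protein. Live fluorescent cells were sorted and sequenced as 3 libraries, labelled biological replicates of 1 group of LepR+ cells. There was no second group, so levels are tested against a fixed value, 1 TPM (a transcript abundance scaled to a sum of 1000000 in each library). A reporter of this kind stays on in a cell and its descendants once Cre has acted, so the sort also keeps cells that no longer make the receptor. The number of cells or animals behind each library is unknown here, and the p-values measure only the spread between these 3 libraries.

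ABC proteins bind and split ATP at paired nucleotide-binding domains, and most use that energy to move a substrate across a membrane. Subfamily A moves phospholipids and sterols, B and C hold drug efflux pumps as well as carriers of organelles and channel regulators, D serves peroxisomes and lysosomes, and G moves sterols and drugs. Members of E and F have no membrane part and act on ribosomes. At blood-brain and blood-nerve barriers the pumps Abcb1a and Abcg2 are known for returning drugs to the blood, and in glia Abca1 and Abcg1 are known for loading cholesterol and phospholipid onto Apoe.

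Replicates 1, 2 and 3 held 8443737, 8219759 and 7859926 gene reads, recovered from the deposited values, so that for a 1 kb gene each read added 0.391, 0.391 and 0.418 TPM. Lepr was read in each library, at 363, 32.1 and 54.0 TPM. Perineurial cells, the sheath cells of peripheral nerve, are what the title of the series names. Of 13 perineurial markers 4 were called above 1 TPM, and the list summed to between 467 and 770 TPM, against 27771 to 32857 TPM for 12 markers of satellite glia and Schwann cells, of which 10 were called above. Most of the glial sum came from Fabp7 and Apoe, with means of 14163 and 8934 TPM. Such sums do not measure shares of cells. Fibroblast markers summed to between 4818 and 6915 TPM, endothelial markers to between 756 and 981, mural markers to between 104 and 479, macrophage markers to between 2.91 and 103, neuronal markers to between 126 and 343 and arachnoid barrier markers to between 6.16 and 62.4. Neither Krt19 of the perineurial list nor Npy of the neuronal list had a read.

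ABC genes took 4816, 4368 and 5138 TPM in replicates 1, 2 and 3, from 81103, 76085 and 81321 reads. A read in at least 1 library was found for 49 of the 50, and these were tested. limma called 11 of the 49 above 1 TPM and 14 below it at an adjusted p under 0.05, with 24 called neither way. Over all 27528 genes tested, 16.4% were called above and 19.0% below. Of the 17237 protein-coding genes tested, 4145 were above and 3483 below. No gene of the table passed without replicate 1 or without replicate 2, and without replicate 3 the ABC genes numbered 10 above and 13 below, with the calls of Abcb1a, Abca5, Abcc10, Abcc12 and Abca14 lost. Without replicate 3, 2453 of all genes tested were above and 5089 below. Against a level of 0.5 TPM, or without mitochondrially encoded genes, 10 ABC genes were above and 0 below. In the whole table these 2 settings gave 4143 and 4052 genes above and 0 below. The median of the 49 was 1.27 in log2(TPM + 1), above the 0.88 over all genes tested and under the 1.63 over the protein-coding ones. In all 3 libraries 16 of the 49 reached 1 TPM (32.7%), beside 24.4% of all genes tested and 33.5% of the protein-coding ones.

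**Figure D1:**
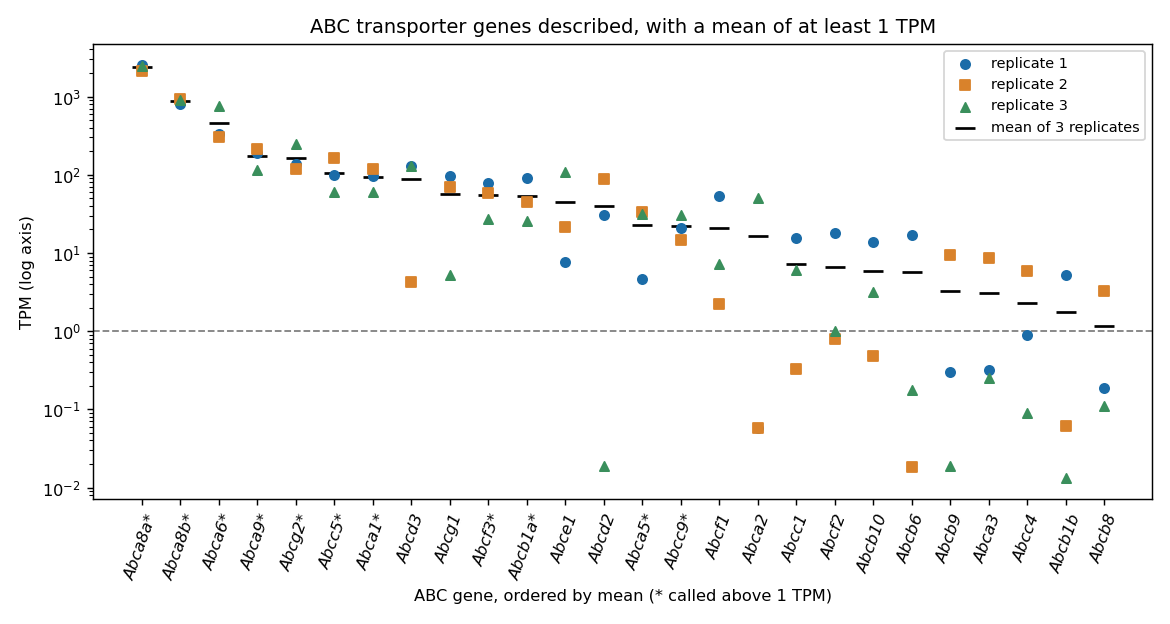
TPM on a log axis in each of the 3 replicates for 26 of the 28 ABC genes whose mean reached 1 TPM, ordered by mean, with a black bar at the mean and a dashed line at 1 TPM. The points of Abca8a and Abca8b lie close together at the left, and from the middle onwards most genes are high in 1 library and near or under 1 TPM in another; a point below about 0.02 is a library without a read.

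Lipid carriers of subfamily A held most of the signal. The 12 genes of that group summed to 3992, 3750 and 4388 TPM, which was 82.9%, 85.9% and 85.4% of all ABC TPM, and 6 of the 12 were called above 1 TPM and 3 below (limma, adjusted p under 0.05). The remaining 4 genes of the subfamily, Abca14 to Abca17, were all below. Most of the total came from 1 stretch of chromosome 11, where Abca8b, Abca8a, Abca9, Abca6 and Abca5 lie side by side on the reverse strand between 109932190 and 110337716 (GRCm38, GENCODE M21). These 5 genes took 80.8%, 82.9% and 83.3% of ABC TPM, and the other 45 took 17.7% ± 1.30 (SD, n = 3).

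Abca8a (ENSMUSG00000041828.15, 110025634 to 110095978), a membrane carrier linked to lipid and sterol export, had 2557, 2148 and 2485 TPM from 40975, 34473 and 37299 reads. The 3 libraries lay close together, with replicate 2 lowest. Its mean of 2396 ± 219 TPM (SD, n = 3) put it at rank 26 of all 52550 genes and exceeded the 1 TPM level by 10.22 in log2(TPM + 1) (SE 0.16; limma, adjusted p = 0.00359). Alone it made up 50.2% ± 2.53 of ABC TPM.

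Its neighbour Abca8b (109932190 to 109995845), the closest relative in the cluster, had 812, 919 and 899 TPM from 15406, 17451 and 15974 reads. Replicate 1 was lowest here, and no library of Abca8b reached the lowest of Abca8a. The mean of 877 ± 56.6 TPM (SD, n = 3; rank 80) was above 1 TPM by 8.78 (limma, adjusted p = 0.00359). Within a library Abca8a stood 3.15, 2.34 and 2.76 times above Abca8b, a difference of 1.45 ± 0.21 in log2(TPM + 1), in 3 of 3 libraries. The exact sign-flip test gave p = 0.25, the smallest p that 3 libraries allow. The open reading frames of the pair matched at 74.8% of aligned bases, and 1.89% of the 50-base words of the Abca8a transcript also occur in Abca8b, while 2.46% of those of Abca8b occur in Abca8a or in the antisense gene Gm11697, which lies inside Abca8b and had 5, 9 and 0 reads.

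Abca6 (110176820 to 110251776), another carrier of the cluster that is thought to act on lipids, had 329, 306 and 748 TPM, with replicate 3 more than 2 times the others. Its mean was 461 ± 249 TPM (SD, n = 3; limma, adjusted p = 0.00480). Abca9 (110100749 to 110168196), a carrier known from macrophages as well as other tissues, went the other way, with 191, 215 and 114 TPM and replicate 3 lowest. Its mean was 173 ± 52.7 TPM (SD, n = 3; limma, adjusted p = 0.00422). Macrophage markers summed to 2.91, 85.5 and 103 TPM in the same libraries, with 0 of 12 called above 1 TPM, 2 below, 9 neither way and 1, Aif1, without a read. Tyrobp had 0, 33 and 120 reads, Ptprc 3, 89 and 488, Cd68 0, 196 and 0 and Lyz2 1, 7 and 43, while Adgre1, C1qa and Csf1r had at most 1, 1 and 7 reads in a library. Glial markers summed to 32857, 27771 and 29959 TPM and fibroblast markers to 4818, 6810 and 6915 TPM. What part these cells have in the levels of the cluster was not tested, and in bulk libraries fewer cells of a type and less RNA per cell cannot be told apart.

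Abca5 (110269369 to 110337716), a carrier of lysosomes and late endosomes, closes the cluster at 4.66, 33.1 and 31.3 TPM. Replicate 1 was low and the other libraries close to each other. The mean of 23.0 ± 15.9 TPM was above 1 TPM at the edge of the threshold (SD, n = 3; limma, adjusted p = 0.04995), and the call was lost under 8 of 11 alternatives. Of the coding genes around the cluster, Map2k6, a kinase, had 24.6, 27.8 and 0.637 TPM on one side. On the other, 1700012B07Rik had no read in any library, Fam20a had 15, 0 and 5 reads, and beyond it Prkar1a, a regulatory subunit of protein kinase A, had 317, 176 and 394 TPM, with a mean of 295 above that of Abca9.

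**Figure D2:**
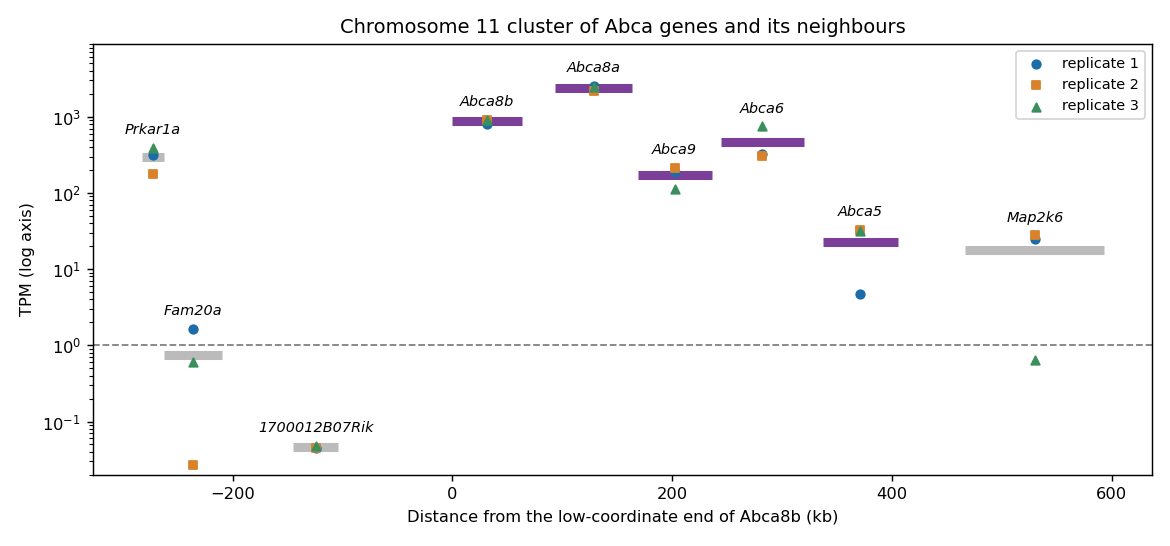
TPM on a log axis against distance in kb along chromosome 11, with a bar for each protein-coding gene's span at its mean over 3 replicates (purple for ABC genes, grey for neighbours) and points for the replicates. The purple bars of Abca8b and Abca8a stand highest, at 877 and 2396 TPM, and Abca5 at the right end lies lowest of the 5, at 23.0 TPM. The grey bar of Prkar1a at the far left stands at 295 TPM, between Abca9 and Abca6.

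Upstream sequences of the cluster are shown because its members range from 23.0 to 2396 TPM over 406 kb. Each is the stretch of 250 bases before the RefSeq start (GRCm38.p6), 5′ to 3′ on the gene's strand, with every CpG dinucleotide in capitals. RefSeq windows were matched for 38 of the 50 symbols, Abca6 not among them.
Abca8a (chr11:110095938-110096187, reverse strand): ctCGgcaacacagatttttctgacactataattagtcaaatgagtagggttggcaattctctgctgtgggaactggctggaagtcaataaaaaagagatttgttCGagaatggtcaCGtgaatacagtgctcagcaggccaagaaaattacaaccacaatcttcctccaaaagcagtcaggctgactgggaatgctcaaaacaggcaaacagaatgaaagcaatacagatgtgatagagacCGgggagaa
Abca8b (chr11:109995846-109996095, reverse strand): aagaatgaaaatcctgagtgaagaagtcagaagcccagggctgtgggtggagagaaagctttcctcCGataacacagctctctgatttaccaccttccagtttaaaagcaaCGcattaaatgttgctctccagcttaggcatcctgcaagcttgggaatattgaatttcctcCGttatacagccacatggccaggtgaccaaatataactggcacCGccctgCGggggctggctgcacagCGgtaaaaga
Abca9 (chr11:110168154-110168403, reverse strand): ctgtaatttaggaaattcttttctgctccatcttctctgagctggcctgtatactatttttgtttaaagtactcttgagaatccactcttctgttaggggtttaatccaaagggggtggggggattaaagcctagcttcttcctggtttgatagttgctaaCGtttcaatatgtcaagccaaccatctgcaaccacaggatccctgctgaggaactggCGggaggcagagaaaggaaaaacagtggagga
Abca5 (chr11:110337717-110337966, reverse strand): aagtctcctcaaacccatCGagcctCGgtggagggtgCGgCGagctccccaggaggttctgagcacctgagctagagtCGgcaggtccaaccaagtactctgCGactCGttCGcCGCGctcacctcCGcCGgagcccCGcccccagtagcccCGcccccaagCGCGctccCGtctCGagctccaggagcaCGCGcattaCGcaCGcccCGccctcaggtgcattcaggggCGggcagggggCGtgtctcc

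CpG dinucleotides numbered 4 in the window of Abca8a, 6 in Abca8b, 2 in Abca9 and 25 in Abca5. A relation of CpG number to level was not tested. The median was 6 over all 32851 windows of the RefSeq table and 12 over the 45 windows of ABC genes. Bases G and C made up 43.2%, 48.8%, 44.4% and 69.2% of the windows of Abca8a, Abca8b, Abca9 and Abca5. The GC box GGGCGG, searched on both strands, was found at 4 places in Abca5 and at 1 in Abca8b, and in 32.7% of all windows. The TATA box TATAAA, the CCAAT box CCAAT and ACAAAG, a motif of SOX factors, were searched on both strands as well and found in none of the 4 windows, beside 12.4%, 33.9% and 16.5% of all. The direct repeat of AGGTCA with 4 bases between the copies, the kind of element that liver X receptors bind, was in none of the 45 ABC windows and in 5 of all windows. Only these exact letters were searched. With so few matches over all windows, their absence from the ABC windows tells nothing about such elements. Such matches describe letters in a short window and not binding.

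Of the other lipid carriers, Abca1 (chromosome 4, 53030787 to 53159895), which loads cholesterol onto apolipoproteins, had 97.3, 120 and 60.0 TPM, with replicate 3 lowest. Its mean of 92.4 ± 30.2 TPM was above 1 TPM by 5.49 (SD, n = 3; limma, adjusted p = 0.00521). Abca7, a relative of Abca1 also linked to phospholipid export, had 0.942, 1.46 and 0.0774 TPM and was called neither way (limma, adjusted p = 0.630). Abca1 stood above it by 5.70 ± 0.11 in log2(TPM + 1), in 3 of 3 libraries (exact sign-flip p = 0.25, the smallest possible).

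Abca2, a carrier of myelinating glia and endolysosomes, had 1, 1 and 997 reads and reached 49.9 TPM in replicate 3. A single library thus held nearly all its reads, and limma called it neither way (adjusted p = 0.646). Abca3, the lamellar body carrier of lung, was read mainly in replicate 2, with 7, 193 and 5 reads or 8.58 TPM there, but 14.3% of its 50-base words occur in other genes' transcripts. Without replicate 3 Abca2 was called below 1 TPM, at -0.92 (limma, adjusted p = 0.0338). Abca4, the retinal carrier, had 2, 3 and 2 reads, Abca12, a lipid carrier of skin, had 1, 2 and 1, and Abca13 had 1, 0 and 3, and all were below. The neighbours Abca14, Abca15 and Abca16 on chromosome 7 had 2, 0 and 2, then 0, 1 and 2, then 1, 0 and 3 reads, and Abca17 had 0, 0 and 2. These were also below 1 TPM, at adjusted p = 0.0428 by limma.

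Barrier efflux pumps formed the next group by level. Its 9 genes summed to 345, 330 and 336 TPM, or 7.09% ± 0.520 of ABC TPM (SD, n = 3), with 3 called above 1 TPM, 1 below and 5 neither way. Abcg2 (chromosome 6, 58584523 to 58695676), the breast cancer resistance protein, had 135, 117 and 244 TPM from 2821, 2442 and 4758 reads, with replicate 3 highest. The mean of 165 ± 68.5 TPM was above 1 TPM by 6.30 (SD, n = 3; limma, adjusted p = 0.00482).

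Abcb1a (chromosome 5, 8660077 to 8748575), P-glycoprotein of barrier endothelium, had 89.6, 45.4 and 25.3 TPM, with replicate 1 highest and replicate 3 lowest. Its mean was 53.4 ± 32.9 TPM (SD, n = 3; limma, adjusted p = 0.0167), and leaving out replicate 1, 2 or 3 ended the call (adjusted p = 0.0792, 0.0909 and 0.0602). Abcg2 lay above Abcb1a by 1.51, 2.58 and 9.66 times, a difference of 1.72 ± 1.35 in log2(TPM + 1), so the order held in 3 of 3 libraries while its size did not (exact sign-flip p = 0.25). Endothelial markers summed to 756, 981 and 868 TPM in replicates 1, 2 and 3, with 5 of 12 called above 1 TPM, 0 below and 7 neither way. The called markers Emcn, at 237, 135 and 146 TPM, and Slco1a4, at 106, 49.4 and 93.9, were highest in replicate 1. Ly6c1, Flt1 and Tek, also called, and Pecam1, Cldn5, Vwf, Tie1 and Egfl7, called neither way, were highest in replicate 2. Cdh5, at 1.23, 31.6 and 38.4 TPM, and Kdr, at 4.95, 10.7 and 45.6, were called neither way and highest in replicate 3. Arachnoid barrier markers summed to 62.4, 40.6 and 6.16 TPM with 1 of 8 called above, and mural markers to 479, 341 and 104. Genes of these lists differed in the order of the libraries. Of the arachnoid list Crabp2 had 130, 0 and 1 reads and Krt18 0, 121 and 0. Of the mural list Rgs5 had 225, 124 and 33.8 TPM and Mcam 33.8, 150 and 45.3. What part any of these cells have in the pumps was not tested.

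Abcb1b, the second mouse P-glycoprotein, had 106 reads in replicate 1, 1 in replicate 2 and none in replicate 3, or 5.20 TPM at its highest. Its difference from Abcb1a was 4.67 ± 0.79 in log2(TPM + 1), with Abcb1a higher in 3 of 3 libraries (exact sign-flip p = 0.25). The reading frames of the pair matched at 88.2% of aligned bases, and 19.6% of the 50-base words of Abcb1b occur elsewhere, mostly in Abcb1a, so the split of reads between them is uncertain. Abcb4, the bile phospholipid carrier that lies next to them, had 0, 1 and 2 reads.

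Among the multidrug resistance-associated proteins, Abcc5 (chromosome 16, 20331303 to 20426394), an exporter of cyclic nucleotides, was the highest, at 98.3, 161 and 59.9 TPM. Its mean of 107 ± 51.3 TPM was above 1 TPM by 5.64 (SD, n = 3; limma, adjusted p = 0.00764). Abcc1, an exporter of glutathione conjugates, had 15.5, 0.324 and 6.02 TPM and was called neither way (limma, adjusted p = 0.284). Abcc4, which also exports cyclic nucleotides, had 0.905, 5.81 and 0.0912 TPM (adjusted p = 0.751). Abcc3 and Abcc6, pumps of liver and kidney, had 6, 3 and 1 and 1, 1 and 6 reads and passed neither way (without replicate 3 Abcc6 was below, limma adjusted p = 0.0338), while Abcc2, the canalicular pump of hepatocytes, was below with 1, 0 and 1 reads.

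**Figure D3:**
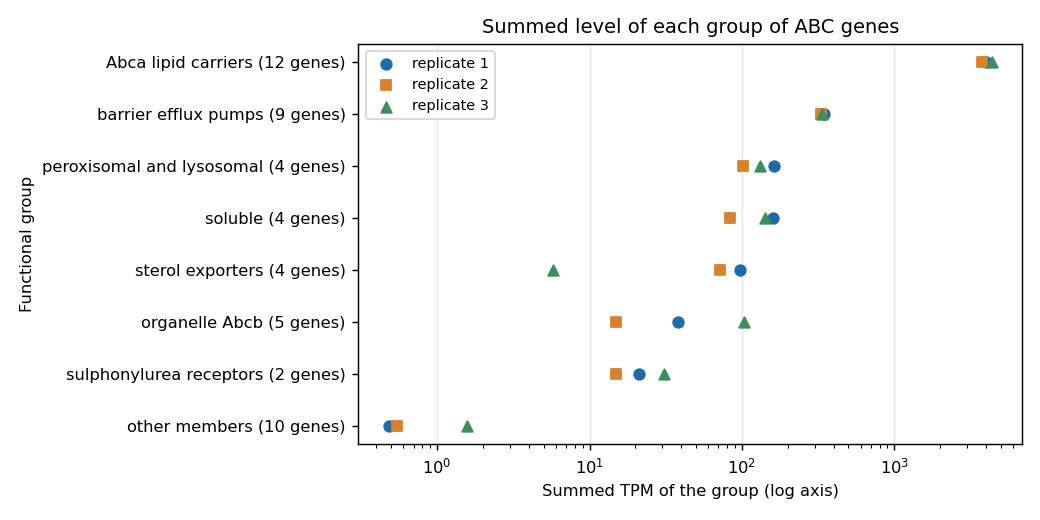
Summed TPM on a log axis of each functional group of ABC genes in the 3 replicates. Lipid carriers lie between 3750 and 4388 TPM and efflux pumps between 330 and 345 TPM, while sterol exporters range from 5.74 to 97.5 TPM.

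Sterol exporters of subfamily G rested on 1 gene. Abcg1 (chromosome 17, 31057675 to 31117988), which moves sterol to lipoproteins alongside Abca1, had 97.3, 69.6 and 5.27 TPM, and replicate 3 was far under the others. Its mean of 57.4 ± 47.2 TPM missed the threshold (SD, n = 3; limma, adjusted p = 0.0602), and it was called above without replicate 3 (adjusted p = 0.0339). Macrophage markers summed to 2.91, 85.5 and 103 TPM in the same libraries, mostly from Cd68 in replicate 2 (61.0 TPM) and Tyrobp in replicate 3 (75.3 TPM). Mural markers summed to 479, 341 and 104 TPM and arachnoid barrier markers to 62.4, 40.6 and 6.16. What part any of these cells have in the level of Abcg1 was not tested. Abcg4, its neural relative, had 1, 5 and 2 reads, and Abcg5 and Abcg8, the paired sterol exporter of liver and gut, had 0, 9 and 0 and 0, 5 and 2 reads. limma thus called 0 of these 4 genes either way, beside 1 above and 2 below when p was not adjusted. Abcg3, a rodent gene of the same subfamily, was below with 0, 0 and 2 reads.

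Peroxisomal carriers were high in some libraries and low in others. Abcd3 (chromosome 3, 121758774 to 121815302), which brings branched and dicarboxylic fatty acids into peroxisomes, had 131, 4.28 and 131 TPM, so that replicate 2 was far under the others (limma, adjusted p = 0.0750). Abcd2, which carries very long chain fatty acids, had 426, 1261 and 0 reads, or 30.2 and 89.2 TPM in replicates 1 and 2, where 3 reads in replicate 3 would be 0.227 TPM. Abcd4, a cobalamin carrier of lysosomes, had 22, 2 and 1 reads. limma called 0 of the 4 genes of subfamily D either way, with 1 above and 0 below at an unadjusted p under 0.05.

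Organelle carriers of subfamily B, 5 genes, summed to 38.2, 14.97 and 103 TPM in replicates 1, 2 and 3. Abcb10, a mitochondrial carrier of haem synthesis, had 13.9, 0.476 and 3.13 TPM. Abcb6, a porphyrin carrier, had 228, 0 and 2 reads, but 55.2% of its exon bases are also annotated to Gm29253, so its value is uncertain. Abcb9, a lysosomal peptide carrier, had 4, 134 and 0 reads, 9.37 TPM at its highest, and Abcb8, a mitochondrial carrier, had 2, 39 and 1, at most 3.24 TPM. limma called 0 of the 5 either way, also at an unadjusted p under 0.05. Abcb5 had 0, 1 and 0 reads and was below, and for Abcb11, the bile salt export pump, no library held a read, which allows up to 0.228, 0.228 and 0.244 TPM at 3 reads.

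Abcc9 (chromosome 6, 142587862 to 142702315), the SUR2 subunit of ATP-sensitive potassium channels, was steady at 21.1, 14.9 and 30.6 TPM from 451, 318 and 613 reads, with all libraries within about a factor of 2. The mean of 22.2 ± 7.93 TPM was above 1 TPM by 3.48 (SD, n = 3; limma, adjusted p = 0.0111). Abcc8, the SUR1 subunit of neurons and beta cells, was below with 0, 0 and 3 reads, and Abcc9 stood above it by 4.39 ± 0.40 in log2(TPM + 1) in 3 of 3 libraries (exact sign-flip p = 0.25). The pore subunits that form the channel with them had hardly a read: Kcnj8 had 0, 0 and 2 and was called neither way, and Kcnj11 had 2, 0 and 1 and was below. Abcc9 and Kcnj8 are also known from pericytes, and mural markers summed to 479, 341 and 104 TPM. Rgs5 had 225, 124 and 33.8 TPM, and Tagln had no read. What part mural cells have in Abcc9 was not tested.

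**Figure D4:**
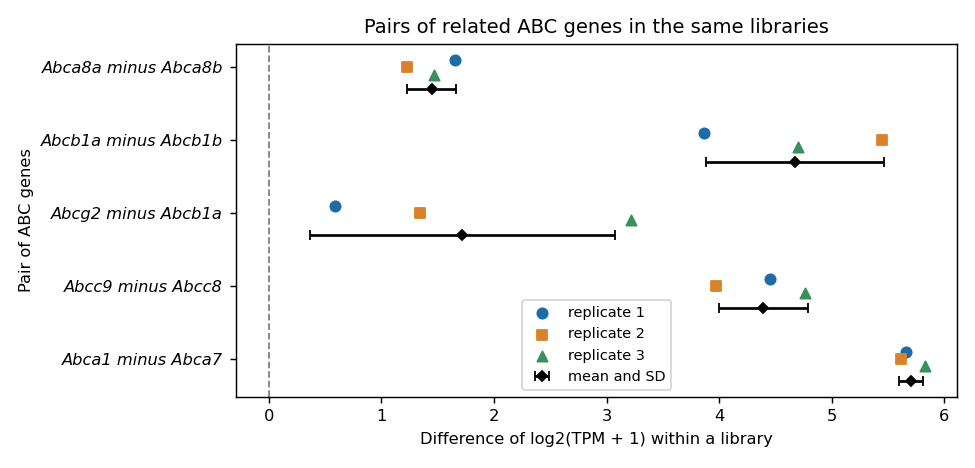
Difference of log2(TPM + 1) within each library for 5 pairs of ABC genes, with the mean and SD as a black diamond and bar and a dashed line at no difference. In all 5 pairs the 3 libraries lie to the right of the line, and Abcg2 minus Abcb1a is the widest, with an SD of 1.35.

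Soluble members, which have no membrane part, were read in every library. Abcf3 (chromosome 16, 20548577 to 20561379), a ribosome-associated ATPase, had 79.6, 59.2 and 26.8 TPM, and it was the 1 of the 4 called above 1 TPM (mean 55.2 ± 26.6, SD, n = 3; limma, adjusted p = 0.0129). Abce1, which splits ribosomes after termination, had 7.71, 21.6 and 107 TPM, and replicate 3 was highest (limma, adjusted p = 0.0530). Abcf1, a factor of translation initiation, had 53.7, 2.24 and 7.32 TPM (adjusted p = 0.139), and Abcf2 had 18.0, 0.798 and 1.02 TPM (adjusted p = 0.428). Of the remaining members, Abcc10 and Abcc12, less studied relatives of the drug pumps, were below with 0, 3 and 4 and 2, 0 and 3 reads.

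Spread between libraries was wide for most ABC genes that were read. Of the 28 whose mean reached 1 TPM, 17 differed 10-fold or more between the highest and lowest library, with a library without a read taken at 3 reads. That was 60.7%, beside 49.8% of the 14062 genes of the table with such a mean and 53.0% of the 10303 protein-coding ones. Their median SD in log2(TPM + 1) was 1.56, beside 1.42 over the 14062 and 1.44 over the protein-coding ones. At a mean of at least 5 TPM it was 1.57 for 22 ABC genes, under the 1.72 for 10127 genes of the table. Over the 8309 protein-coding genes with such a mean it was 1.52, which is lower than for the ABC genes. Replicates 1, 2 and 3 were the highest for 11, 11 and 6 of the 28 and the lowest for 3, 12 and 13.

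**Figure D5:**
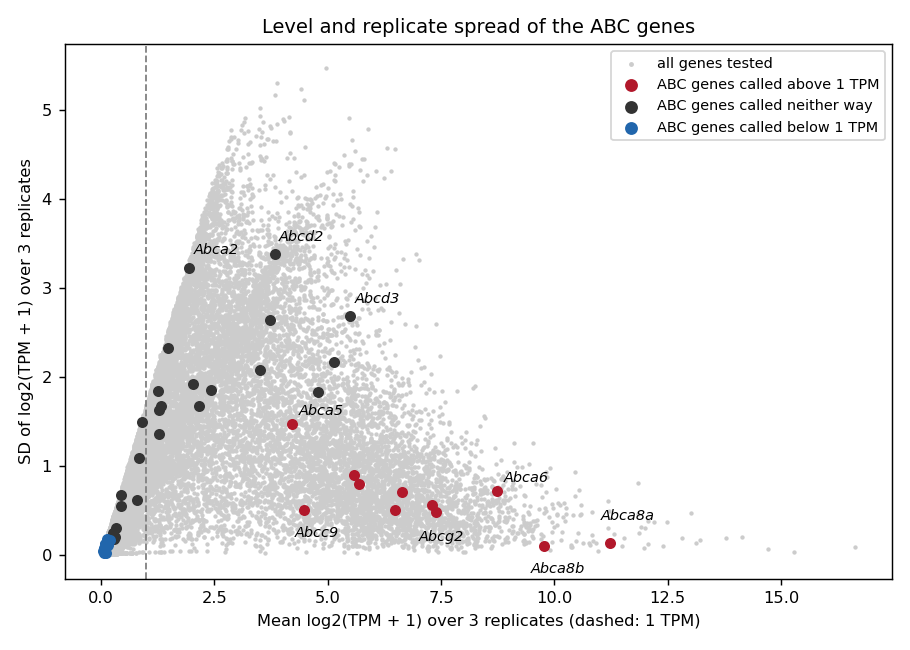
Mean against SD of log2(TPM + 1) over the 3 replicates for all 27528 genes tested (grey) and the 49 ABC genes tested, coloured by call, with a dashed line at 1 TPM. The genes called above 1 TPM lie low and to the right, and Abca2, Abcd2 and Abcd3 lie high in the plot, between SDs of 2.68 and 3.38.

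Genes that work with ABC proteins were counted from 8 lists with 51 genes. limma called 16 of them above 1 TPM and 4 below, with 27 neither way and 4 without a read. The shares over all genes tested were 16.4% above and 19.0% below. Among 17237 protein-coding genes tested 4145 were above and 3483 below. Without replicate 3 calls were lost, among them those of Ahr, Srebf2, Clu, Pex19, Eif2ak4 and Slco1a4 above and of Cftr, Kcnj11 and Slc22a6 below, at adjusted p between 0.0526 and 0.0976. Among lipid acceptors and sterol handlers, 5 of 9 were above and 0 below, also at an unadjusted p under 0.05. Apoe, the acceptor served by Abca1 and Abcg1, had 9528, 8061 and 9214 TPM, and Apod had 2434, 3266 and 1646. Npc1 and Npc2, which release sterol from lysosomes, had means of 77.8 ± 7.94 and 120 ± 71.5 TPM (SD, n = 3), and Clu, a chaperone that binds lipids, had 21.1, 38.1 and 233. Apoa1, the acceptor of plasma lipoproteins, had no read in any library.

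Of 12 transcription factors known to act on ABC genes, 2 were called above 1 TPM, 0 below and 8 neither way, and 2 had no read. Before adjustment 3 were above and 1 was below at p under 0.05. After adjustment the 2 above were Ahr, the aryl hydrocarbon receptor, and Srebf2, the master factor of sterol synthesis. Ahr had 40.7, 130 and 127 TPM and Srebf2 had 14.5, 28.5 and 38.0 TPM (limma, adjusted p = 0.0128 and 0.0162). The liver X receptors that turn on Abca1 and Abcg1 were uneven: Nr1h2 had 293, 0 and 41 reads and Nr1h3 had 0, 6 and 49. Their partner Rxra had 116, 0.948 and 5.83 TPM. Nr1i2 and Nr1i3, the receptors that turn on drug pumps in liver, were without a read, which at 3 reads allows at most 0.491 TPM for Nr1i2 and 0.284 TPM for Nr1i3.

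Peroxisomal partners gave 2 of 5 above, among them Pex19, which delivers membrane proteins to peroxisomes, with a mean of 41.3 ± 46.4 TPM (SD, n = 3; limma, adjusted p = 0.0442). The call of Pex19 was also lost with a filter at a mean of 0.5 TPM, against levels of 0.5 or 5 TPM, without mitochondrially encoded genes and without any 1 replicate. Of 7 genes of mitochondrial haem and iron-sulphur synthesis, 2 were above, Fech at 71.9, 113 and 45.4 TPM and Iscu at 71.5, 69.2 and 93.4 (limma, adjusted p = 0.00777 and 0.00362). Of 7 translation partners of subfamilies E and F, 4 were above, led by Eif2s1, a subunit of initiation factor 2, at 72.4, 51.2 and 136 TPM (limma, adjusted p = 0.00835), and Pelo, which rescues stalled ribosomes, had no read. These lists had 0 below, also at an unadjusted p under 0.05.

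Of 6 solute carriers that work beside the pumps at barriers, 1 was above and 2 below. Slco1a4, an organic anion carrier of brain endothelium, had 106, 49.4 and 93.9 TPM (limma, adjusted p = 0.00652; 0.0645 without replicate 3), and Slco1c1 and Slc22a6 were below with at most 2 reads in a library. ABC genes under other symbols gave 1 of 3 below, the chloride channel Cftr with 2, 0 and 0 reads. Tap1 and Tap2 together carry peptides for class I molecules. They had 1, 12 and 628 and 64, 13 and 1 reads, so each was highest in the library where the other was lowest.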

How the data were processed

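RNA was measured by Smart-Seq2 sequencing in 3 libraries of 1 group. The authors deposited log2 TPM (an abundance relative to gene length and library total). STAR, featureCounts and the build mm10 (GRCm38) are named, without roles, per the submitters' processing notes. Annotation release and strand setting were not given in the sources used here.

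No label says so, but the deposited values fit whole reads plus 0.25 per gene, divided by gene length. With exon lengths of GENCODE M21, whole reads (within 0.001 of a read, with a small allowance for rounding of large counts) were recovered for 49492 genes, and for 3057 more with a length solved from the values. All 50 ABC genes had recovered reads, 42 of them with the M21 length. The libraries carry no molecular identifiers, so limits from counts cover counting error only. Where a library has no read of a gene, reads are printed. Means, SDs and tests use the deposited values.

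Each gene's mean log2(TPM + 1) was compared with the level for 1 TPM by limma 3.58.1 in R 4.3.3 (two-sided, Benjamini-Hochberg adjustment over 27528 genes with at least 1 read in at least 1 library, threshold 0.05). The scale understates differences of low genes. Pairs of genes were compared within libraries with the sign-flip test (exact, two-sided). The fit was also run on simulated, normally distributed values with each gene's own SD. That run does not show how the test behaves on the uneven values of these libraries. Python 3.11.15, numpy 2.4.6, pandas 2.3.3 and matplotlib 3.10.9 served other steps. Words of 50 bases of each gene's longest coding GENCODE M21 transcript were looked up in all other genes' transcripts, and longest open reading frames were aligned end to end. Alternatives were other pseudocounts, filters, levels and scalings, a mean-variance trend and leaving out each replicate.

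Every ABC gene whose mean reached 1 TPM or that was called is named, except 2 that, with 1 partner gene, are not reported here; counts and sums over lists include them. The genes and lists were chosen with earlier results of these data known.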

Additional observations from a re-analysis of the deposited data

How the results depend on the processing

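With limma's test, leaving out 1 replicate gave from 0 to 10 ABC genes above 1 TPM (11 with all 3), from 0 to 13 below (14 with all 3), and from 0 to 9 and from 0 to 3 partner genes above and below (16 and 4). The 0 came from the fits without replicate 1 and without replicate 2, in which no gene passed. At an unadjusted p under 0.05 there were then 11 ABC genes above in either case and 18 and 20 below. Among all 27528 genes tested, 4642 and 4445 were then above and 7872 and 8204 below. Across the other alternatives 10 to 16 ABC genes were above, and the 10 called genes other than Abca5 remained called. Partner genes above numbered 11 to 21. The whole table had from 3519 of 22425 genes above (mean of at least 0.5 TPM) to 6258 of 52550 (no filter). Counts below 1 TPM were less stable. With genes of a mean of at least 0.5 TPM, with a level of 0.5 TPM or without mitochondrially encoded genes they were 0 for ABC genes and 0 for partners (unadjusted 0, 8 and 16, and 0, 2 and 6). In the whole table these settings called 15 of 22425, 0 of 27528 and 0 of 27500 genes below, so the zeros are not particular to these lists. Partner genes below numbered 11 without a filter and 9 with a level of 5 TPM or with a mean-variance trend. Of all genes, 29850 of 52550, 14074 of 27528 and 9856 of 27528 were below in these 3 fits. The cause was not tested. Rescaling without mitochondrially encoded genes moved the median of all genes by 0.13 in log2(TPM + 1). Leaving out 1 replicate moved Abca2 between -0.92 and 1.88 and the partner gene Gcn1l1 between -0.64 and 1.19, the negative values without replicate 3 (limma, adjusted p = 0.0338 and 0.0384). The 5 pair differences given here kept their direction with pseudocounts of 0.5 and 0.1 and without each replicate. No paired analysis was possible because there is 1 group. With 3 libraries of wide spread, a gene not called is not shown to be absent.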
